A study of Mus musculus with 4 samples.

Results

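The genes of the proteasome and of the ubiquitin-conjugating enzymes were examined in mouse skeletal muscle with and without the kinase subunit AMPKα2. They were the rows of the count table whose symbol began with Psm, a letter from a to g and a digit, or with Ube2, with pseudogene symbols that contain "-ps" left out. This gave 56 genes with 236 start sites among 9838 genes and 42207 sites in the table, of which 28 genes with 86 sites were proteasome genes and 28 genes with 150 sites had a Ube2 symbol and are called E2 genes here, after the ubiquitin-conjugating enzymes (E2). The pattern also took in Ube2cbp, which RefSeq lists with the synonym Ube3d and which encodes a protein that binds an E2 and is not itself one. Knockout (KO) libraries came from AMPKα2-/- male mice on C57BL/6, a line that lacks part of the catalytic domain of AMPKα2 in every tissue, and wild-type (WT) libraries came from male WT controls, with 2 mice and 2 libraries per group. Prkaa2 encodes AMPKα2, one of the catalytic subunits of AMP-activated protein kinase (AMPK), a sensor of the energy state of the cell. The adult mice were about 8 weeks old, as stated for the KO, and were not treated as far as the sources used here say. Total RNA of gastrocnemius muscle was depleted of ribosomal RNA and profiled with WTSS-seq, a method for whole transcriptome start sites, in which template switching marks the 5′ end of an RNA or of a fragment of one. The question was whether these genes, or their alternative start sites (ASSs), differed between KO and WT.

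Ubiquitin is a small protein that is activated by an E1 enzyme, handed to an E2 enzyme and joined to a target protein, usually with the help of an E3 ligase that selects the target. The proteasome recognises and degrades many of the proteins marked in this way. Its core particle is a barrel of alpha and beta subunits, with the cutting sites on some of the beta subunits, and its regulatory particle holds a ring of ATPases that unfold the target, receptors for ubiquitin and an enzyme that removes ubiquitin before degradation. In skeletal muscle this pathway takes part in the turnover of myofibrillar proteins and is known for its role in muscle wasting.

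The libraries held 1300069 to 2900279 reads, with the KO libraries the deeper ones. Of the reads outside ribosomal and mitochondrial RNA, the 56 genes took 0.939% to 1.44% in each of the 4 libraries. Prkaa2 itself had 244 and 209 reads in KO and 109 and 149 in WT over 19 sites along the gene (log2 fold change -0.03, SE 0.50, adjusted p = 0.994 by DESeq2), and since it was not known which of these sites lay in the deleted part, this did not check the labels. All 7 listed genes of muscle fibres were read, with a summed normalized count of 22280 to 36160 per library. Of other cell types, red blood cell genes summed to 3.67 to 7.01 with 1 of 4 listed genes in the table, endothelial genes to 46.4 to 91.8 with 4 of 4, fibroblast genes to 2131 to 3169 with 6 of 6, and adipocyte genes to 2917 to 5833 with 3 of 5. Macrophage and other immune genes, with 5 of 8 in the table, summed to 95.3 and 122 in KO and to 310 and 191 in WT. Genes of slow fibres, with 5 of 6 in the table, summed to 720 and 1029 in KO and to 266 and 778 in WT. No marker gene was called, and in bulk muscle fewer cells of a type and less RNA per cell cannot be told apart.

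Levels differed widely among the 56 genes, and in some of them a single site held nearly all reads. Ube2l3, which encodes an E2 that works with E3 ligases of the HECT and RBR types, had 9609 and 10038 reads in KO and 9185 and 5338 in WT. It alone took 55.8% and 68.7% of the reads of all 56 genes in KO and 77.9% and 61.7% in WT. Per kb of gene length it had 690 reads over the 4 libraries, against 0.063 (Ube2cbp) to 52.1 (Psmd7) reads per kb in the other 55 genes.

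A total of 31 of the 56 genes had fewer than 100 reads over the 4 libraries, as did 60.3% of all nuclear genes. The median was 3 sites and 93.5 reads per gene, against 2 sites and 64 reads over all nuclear genes. In 19 of the 56 genes (33.9%) 1 site held at least 90% of the reads, a lower share than the 42.0% of all nuclear genes. These included the 13 genes (23.2%) with only 1 site, beside 38.3% of all nuclear genes. A gene with few reads has a wide error, and the half-width of the 95% interval of the log2 fold change had a median of 2.11 in proteasome genes and 1.98 in E2 genes.

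**Figure D1:**
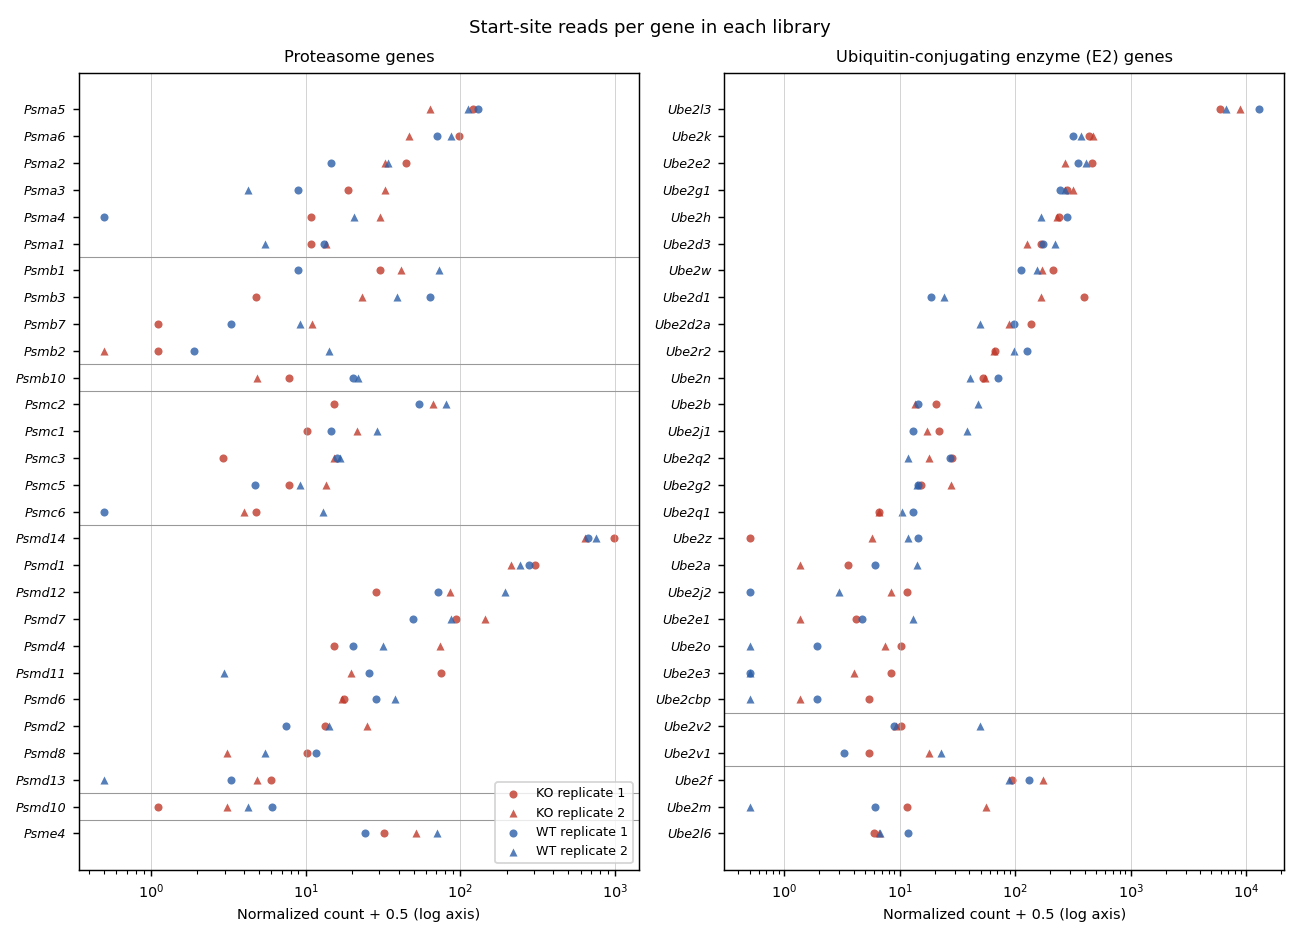
Normalized count plus 0.5 of each gene in each library, on a log axis, with proteasome genes on the left and E2 genes on the right. Red marks are KO and blue marks are WT, circles are replicate 1 and triangles replicate 2, and grey lines separate the roles. Ube2l3 lies far to the right of all other genes, and Ube2d1 has both KO marks well to the right of both WT marks.

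Of the 56 genes, 33 passed the filter on low counts and received an adjusted p, and 1 of them was called at an adjusted p under 0.1, Ube2d1, which was higher in KO. Over all genes tested, 1.71% were called higher and 0.96% lower in KO, and no gene of the proteasome or of the E2 enzymes was called lower. At an unadjusted p under 0.05 by DESeq2, Ube2d1 and Ube2m were higher and Psmb3 lower, which was not set against the share over all genes. The quasi-likelihood test of edgeR tested 42 of the 56 genes and called the same gene, Ube2d1, with 0.54% of all genes called higher and 0.343% lower.

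The medians of both families lay near that of all genes. The median log2 fold change of the proteasome genes was -0.15, with 11 genes above 0 and 17 below, and that of the E2 genes was 0.01, with 14 above and 14 below, beside a median of 0.07 over all genes. Without Ube2cbp the median of the E2 genes was -0.04, with 13 above 0 and 14 below. The summed normalized count of the proteasome genes was 1819 ± 187 in KO and 1804 ± 283 in WT (SD, n = 2), which overlapped. All E2 genes summed to 9832 ± 1777 in KO and 11850 ± 4358 in WT (SD, n = 2), which overlapped. Without Ube2l3 the E2 genes summed to 2512 ± 275 in KO and 2086 ± 48.3 in WT (SD, n = 2), where the KO libraries lay above the WT libraries. Ube2d1 added 279 ± 158 to this KO sum and 20.95 ± 3.84 to the WT sum. Both KO libraries lay above both WT libraries in 12 of the 56 genes and below in 13, or 3 above and 6 below in proteasome genes and 9 above and 7 below in E2 genes. Over all genes the KO libraries lay above in 21.7% and below in 17.6%, and an exact two-sided permutation test of 2 against 2 libraries cannot go below p = 0.33.

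**Figure D2:**
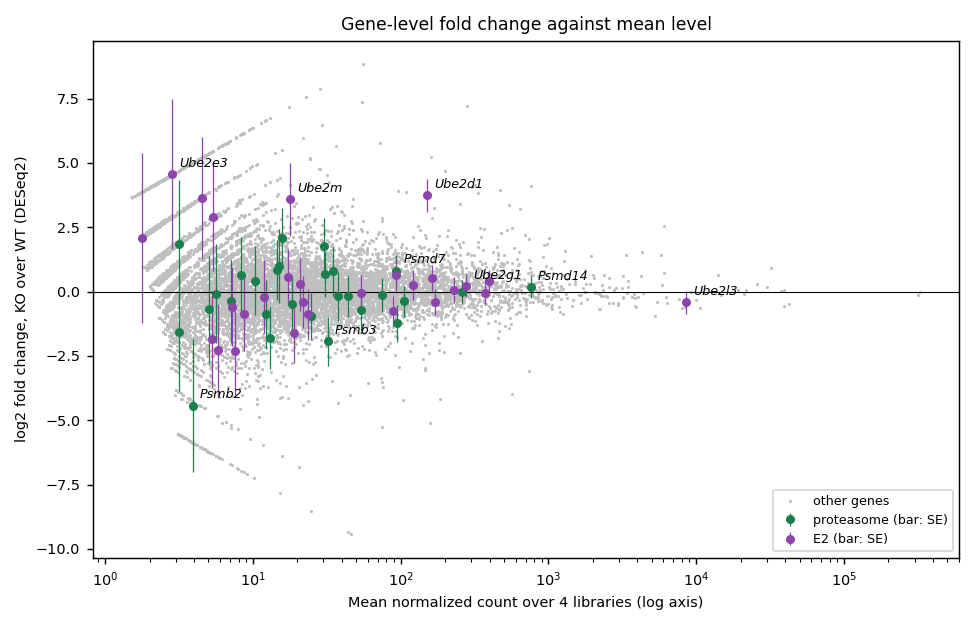
Log2 fold change of KO over WT by DESeq2 against the mean normalized count over the 4 libraries, on a log axis, for proteasome genes (green), E2 genes (purple) and all other genes (grey). Bars are the SE. Ube2d1, at 3.73, stands above most genes of like level. Ube2l3 has the highest level among the proteasome and E2 genes, and genes of low level such as Psmb2 and Ube2e3 have wide bars.

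The alpha subunits form the outer rings of the core particle, which gate the way into it. The most read were Psma5, with 197 and 72 reads in KO against 92 and 89 in WT, and Psma6, with 159 and 53 in KO and 50 and 70 in WT. Neither differed beyond the spread of its libraries, at log2 fold changes of -0.38 (SE 0.59, adjusted p = 0.954) and -0.13 (SE 0.65, adjusted p = 0.992). All reads of both genes came from introns, those of Psma5 from 1 site at chr3:108269393-108269398, 12470 bases into the gene. Psma3 had 30 and 37 reads in KO and 6 and 3 in WT, where its KO libraries did not overlap its WT libraries. Its log2 fold change was 2.07 (SE 1.19), and it was below the filter on low counts and so had no adjusted p in DESeq2, while edgeR gave an adjusted p of 0.431. Its most read site, chr12:70995052-70995068, lay 809 bases before the end of the gene.

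The beta subunits carry the protease sites and their structural neighbours. Psmb1 had 49 and 47 reads in KO and 6 and 58 in WT, so its WT libraries lay on both sides of the KO libraries. Psmb3 had 7 and 26 reads in KO and 45 and 31 in WT, all from 1 intronic site at chr11:97707925-97707926. Its KO libraries lay below its WT libraries with a log2 fold change of -1.93 (SE 0.95), which was not called (adjusted p = 0.491). Psmb2 had only 1 and 0 reads in KO and 1 and 11 in WT, so that its log2 fold change of -4.43 (SE 2.59) rested on WT replicate 2. Psmb10 encodes a catalytic subunit of the immunoproteasome, a form of the core particle that is abundant in immune cells. It had 12 and 5 reads in KO and 14 and 17 in WT, at a log2 fold change of -1.79 (SE 1.21) and an edgeR adjusted p of 0.515. The summed immune markers given above were also lower in both KO libraries than in both WT libraries. Of the 5 marker genes, 4 had a log2 fold change below 0 and 1, Csf1r, above. Ptprc had normalized counts of 147 and 48.6 in WT replicates 1 and 2, so the sum differed between the WT libraries. The part of these markers in the value of Psmb10 was not tested.

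The base ATPases of the regulatory particle unfold the target and thread it into the core. Psmc2 had 24 and 76 reads in KO against 38 and 64 in WT, and Psmc1 had 16 and 24 in KO and 10 and 23 in WT, so in both genes the groups overlapped. All 5 base ATPases in the table had few reads, 378 in all over the 4 libraries. Their median log2 fold change was -0.69, with 1 above 0 and 4 below, none called.

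Among the other subunits of the regulatory particle, Psmd14, the deubiquitinase that releases ubiquitin chains from the target, was the most read proteasome gene. It had 1602 and 728 reads in KO and 474 and 607 in WT, a log2 fold change of 0.19 (SE 0.43, adjusted p = 0.988) with a 95% interval of -0.66 to 1.03. Of these reads 99.7% were intronic, and 92.0% came from 1 of its 11 sites, at chr2:61723592-61723623, which had 1429 and 688 reads in KO and 453 and 569 in WT. Psmd1, a large scaffold subunit of the base, had 495 and 242 reads in KO and 199 and 196 in WT. Its log2 fold change was -0.02 (SE 0.47, adjusted p = 0.994), and 89.3% of its reads came from 1 intronic site at chr1:86089166-86089181. The normalized levels of both genes overlapped between KO and WT.

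Psmd12 and Psmd11 encode subunits of the lid of the regulatory particle. Psmd12 had 46 and 98 reads in KO and 51 and 156 in WT, at a log2 fold change of -1.23 (SE 0.72, adjusted p = 0.651). Psmd11 had 122 and 22 reads in KO and 18 and 2 in WT, at a log2 fold change of 1.77 (SE 1.09, adjusted p = 0.683). Within each group of Psmd11 one library had several times the reads of the other, and its groups overlapped once normalized.

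Psmd7, another lid subunit, had 153 and 165 reads in KO and 35 and 69 in WT over 6 sites. As a gene it was not called, with a log2 fold change of 0.81 (SE 0.61, adjusted p = 0.826), although both KO libraries lay above both WT libraries. An intronic site at chr8:107582118-107582149, 1760 bases before the end of the gene, had 86 and 33 reads in KO and 3 and 0 in WT. It was called higher in KO by DESeq2 with a log2 fold change of 4.44 (SE 1.42, adjusted p = 0.0724), but not by edgeR (adjusted p = 0.177). With 3 reads in WT in all, the rate in KO was 23.7 times that in WT with a 95% exact interval of 7.92 to 117 that covers counting error only. The call was lost without KO replicate 1, KO replicate 2 or WT replicate 2 (adjusted p = 1, 1 and 0.45) and kept without WT replicate 1 (adjusted p = 0.0728). The most read site of the gene, in an exon at chr8:107580930-107581034, had 52 and 104 reads in KO and 26 and 43 in WT. It was not called (log2 fold change 0.54, SE 0.87, adjusted p = 1).

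Psmd10 encodes a chaperone for the assembly of the regulatory particle, and Psme4 an activator that caps the core particle in place of it. Psmd10 had 1 and 3 reads in KO and 4 and 3 in WT, too few to show a difference at this depth. Psme4 had 52 and 59 reads in KO and 17 and 56 in WT over 9 sites, with overlapping groups and a log2 fold change of -0.17 (SE 0.80, adjusted p = 0.992).

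Across sites, 64 of the 236 sites received an adjusted p and 2 were called higher in KO, 1 in Psmd7 and 1 in Ube2d1, with none called lower. Over all sites tested, 2.33% were called higher and 0.882% lower. The edgeR test called only the site in Ube2d1 among 62 sites tested, where 0.427% of all sites were called higher and 0.285% lower. Of the 236 sites, 13 (5.51%) had no read in either WT library and 4 (1.69%) had none in either KO library, beside 11.8% and 2.29% of all sites. Both KO libraries were deeper, and a site was listed only with at least 10 reads over the 4 libraries.

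Ube2d1 encodes an E2 of the UBE2D family, which works with many E3 ligases of the RING type. The gene had 640 and 191 reads in KO and 13 and 19 in WT, or 391 and 167 normalized counts in KO and 18.2 and 23.7 in WT. Both KO libraries stood far above both WT libraries, and the log2 fold change was 3.73 (SE 0.63, 95% interval 2.503 to 4.96), with an adjusted p of 1.43e-06 by DESeq2 and 0.019 by edgeR. Nearly all of this lay at 1 of its 4 sites, an exonic site of 12 bases at chr10:71255391-71255402 on the minus strand, 418 bases before the end of the gene and 29864 bases from its start. This site had 614 and 183 reads in KO and 0 and 4 in WT, at a log2 fold change of 6.85 (SE 1.06), an adjusted p of 1.11e-07 by DESeq2 and 0.0465 by edgeR. It held 95.9% and 95.8% of the reads of the gene in KO and 0% and 21.1% in WT.

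The other 3 sites of Ube2d1 together had 26 and 8 reads in KO and 13 and 15 in WT, or 15.9 and 6.99 normalized counts in KO and 18.2 and 18.7 in WT, so that away from the exonic site the KO libraries were not higher. An intronic site at chr10:71259000-71259013 had 6 and 6 reads in KO and 12 and 10 in WT (log2 fold change -1.61, SE 1.53, adjusted p = 1). No read of Ube2d1 lay within 100 bases of its annotated start. Without KO replicate 1, which held most of the reads, the gene was no longer called (log2 fold change 3.001, adjusted p = 0.123) while the site was (adjusted p = 0.0134), and without KO replicate 2 the gene was called (adjusted p = 4.75e-05) while the site was not (log2 fold change 7.40, adjusted p = 1). Without WT replicate 1 or WT replicate 2 both calls were kept.

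**Figure D3:**
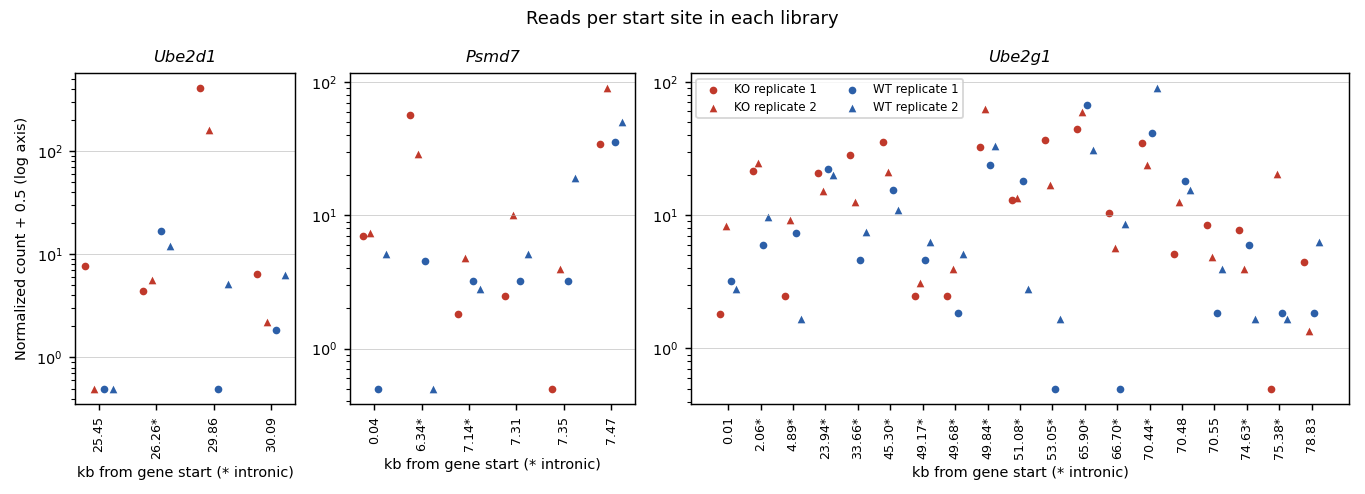
Normalized count plus 0.5, on a log axis, at every site of Ube2d1, Psmd7 and Ube2g1 in each library, ordered by distance from the annotated gene start in kb, with intronic sites marked by an asterisk. Red marks are KO and blue marks are WT, circles are replicate 1 and triangles replicate 2. The site 29864 bases from the start of Ube2d1, the one 6342 bases from that of Psmd7 and the one 53049 bases from that of Ube2g1 have both KO marks well above both WT marks.

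Among the other E2 enzymes for ubiquitin, Ube2l3 had a log2 fold change of -0.42 (SE 0.45, adjusted p = 0.928) with overlapping groups. Its reads came almost wholly, at 99.8%, from 1 exonic site at chr16:17152932-17153062, 998 bases before the end of the gene and 48479 bases from its start. This site had 9588 and 10013 reads in KO and 9179 and 5317 in WT. Ube2k, an E2 that builds chains linked through lysine 48 of ubiquitin, had 715 and 535 reads in KO and 227 and 296 in WT over 16 sites. Its KO libraries lay above its WT libraries once normalized, by a log2 fold change of 0.40 (SE 0.43, adjusted p = 0.928) with a 95% interval of -0.45 to 1.24. Its most read site, at chr5:65560540-65560547 in an intron, had 188 and 295 reads in KO and 93 and 70 in WT.

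Ube2d3, a close relative of Ube2d1, was not called. It had 274 and 144 reads in KO and 123 and 176 in WT over 16 sites, with normalized KO libraries below the WT libraries by a log2 fold change of -0.42 (SE 0.51, adjusted p = 0.936). Ube2d2a, the other UBE2D gene in the table, had 225 and 100 reads in KO and 69 and 39 in WT, with overlapping groups and a log2 fold change of 0.63 (SE 0.63, adjusted p = 0.911). Ube2e2, which shares its catalytic fold with the UBE2D family, had 762 and 307 reads in KO and 248 and 327 in WT, all intronic, over 19 sites along a gene of 321 kb. Its log2 fold change was -0.04 (SE 0.47, adjusted p = 0.992). Ube2e3 had 13 and 4 reads in KO and none in WT, at a log2 fold change of 4.56 (SE 2.915). It was below the filters on low counts and had no adjusted p in DESeq2 or edgeR. With the floor of 3 counts per library set for WT, the mean of the KO libraries was 1.44 times the floor. The KO libraries had normalized counts of 7.941 and 3.495, while 3 counts in WT replicates 1 and 2 correspond to 4.207 and 3.736. KO replicate 2 thus lay below the floor of both WT libraries. As a site was listed only with at least 10 reads over the 4 libraries, this gene was listed through its KO reads alone, and no difference is read from the bound.

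Ube2m and Ube2f are the E2 enzymes for NEDD8, a relative of ubiquitin that activates cullin E3 ligases. Ube2m had 18 and 63 reads in KO and 4 and 0 in WT, all at 1 exonic site, chr7:13035453-13035465, 340 bases before the end of the gene. Its KO libraries lay above its WT libraries with a log2 fold change of 3.59 (SE 1.41), which was not called by DESeq2 (adjusted p = 0.237) or edgeR (adjusted p = 0.308). Ube2f had 153 and 197 reads in KO and 94 and 71 in WT, 97.9% of them at 1 intronic site, with overlapping groups and a log2 fold change of 0.27 (SE 0.58, adjusted p = 0.988). Ube2l6, the E2 for the ubiquitin relative ISG15, had 29 reads in all over the 4 libraries.

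Ube2v1 and Ube2v2 lack the catalytic cysteine and act as partners of Ube2n in building chains linked through lysine 63 of ubiquitin. Ube2v1 had 8 and 20 reads in KO against 2 and 18 in WT, and Ube2v2 had 16 and 10 reads in KO and 6 and 39 in WT. In both genes the groups overlapped, and the log2 fold changes were -0.19 (SE 1.40) and -1.63 (SE 1.14). Their partner Ube2n had 86 and 62 reads in KO and 50 and 32 in WT, at a log2 fold change of -0.04 (SE 0.70, adjusted p = 0.994).

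Whether the sites of a gene changed relative to each other was tested where at least 2 sites passed the count filter, as in 14 of the 56 genes. Ube2d1 and Ube2g1 were called (adjusted p = 0.0861 and 0.0975), where 1.77% of all genes tested were called. In Ube2d1 the 2 sites compared were the exonic and the intronic site given above. Ube2g1, another E2 for ubiquitin, had 462 and 363 reads in KO and 174 and 216 in WT over 19 sites, and as a gene it had a log2 fold change of 0.22 (SE 0.45, adjusted p = 0.983). Of its 10 sites compared, an intronic one 53049 bases from the gene start had 55 and 19 reads in KO and 0 and 1 in WT. With 1 read in WT in all, the rate in KO was 44.2 times that in WT with a 95% exact interval of 7.69 to 1770 for counting error only. Tested on its own, this site was not called (log2 fold change 5.41, SE 1.958, DESeq2 adjusted p = 0.14). A second intronic site, at chr11:72677684-72677703, had 52 and 27 reads in KO and 30 and 77 in WT (log2 fold change -1.17, SE 0.88, adjusted p = 0.894). The most read site of Ube2g1, at chr11:72673163-72673166 in an intron, had 67 and 68 reads in KO and 49 and 26 in WT, where its groups overlapped once normalized. The calls for use were lost when any 1 library was left out, except that Ube2d1 stayed just under the threshold without WT replicate 2 (adjusted p = 0.0981).

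Where the reads of these genes began was compared with all nuclear genes. Introns held 131 of the 236 sites (55.5%) and exons held 83 as sites contained in a transcript (35.2%), beside 52.1% and 38.6% of the sites of all nuclear genes. By reads, introns held 78.7% ± 11.7 in KO and 73.9% ± 9.33 in WT of the proteasome reads, and 63.2% ± 2.48 in KO and 70.1% ± 5.29 in WT of the E2 reads without Ube2l3 (SD, n = 2). Over all nuclear genes the share was 34.5% ± 5.90 in KO and 31.5% ± 5.39 in WT (SD, n = 2), and by reads both of these gene sets lay above it in every library. Psmd14 and Psmd1 held 3411 and 1132 of the 7877 proteasome reads, 99.7% and 95.4% of them intronic, and weighed most in that share. By sites, introns held 43 of the 86 proteasome sites, below the 52.1% of all nuclear genes. Genes with at least 90% intronic reads were 28.6% of proteasome genes and 35.7% of E2 genes, beside 30.8% of all nuclear genes. With Ube2l3, whose reads lay almost wholly in an exon, introns held 10.2% to 19.5% of the E2 reads and 17.0% to 31.96% of the reads of all 56 genes, both below all nuclear genes in every library. KO and WT overlapped in the proteasome genes, while both KO libraries lay below both WT libraries in the E2 genes without Ube2l3. This rested on the exonic site of Ube2d1, without which introns held 71.3% and 69.7% in KO against 73.8% and 66.5% in WT, so that the groups overlapped.

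**Figure D4:**
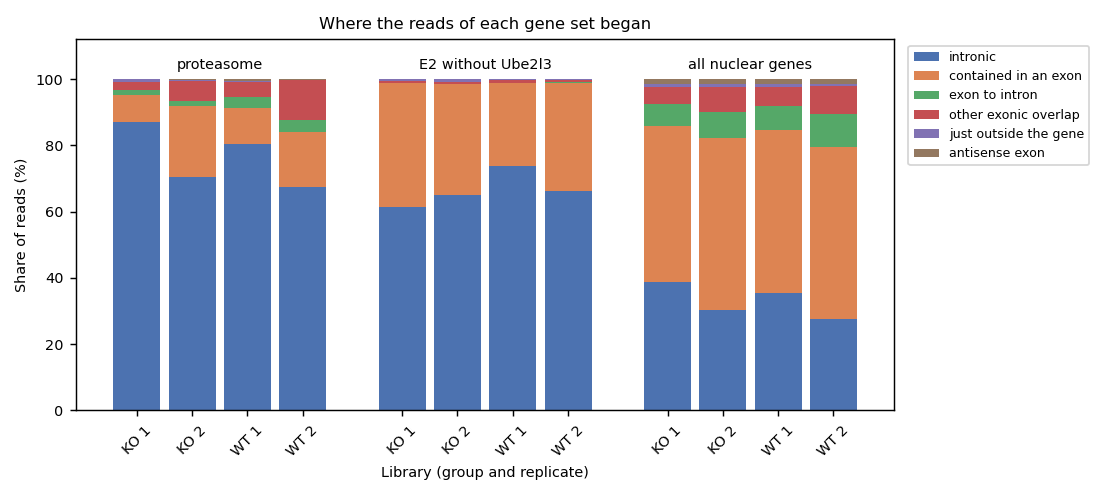
Share of reads in percent by the class of the start site, as stacked bars for each library of KO and WT, for proteasome genes, for E2 genes without Ube2l3 and for all nuclear genes. Introns hold 67.3% to 86.9% of the proteasome reads and 61.4% to 73.8% of the E2 reads without Ube2l3, against 27.7% to 38.7% over all nuclear genes, while with Ube2l3 the E2 share is 10.2% to 19.5%.

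Few reads lay at annotated gene starts. A site within 100 bases of a RefSeq gene start and on the strand of the gene was found in 13 of the 56 genes (23.2%), 7 proteasome and 6 E2 genes, beside 13.8% of the nuclear genes with an annotated start. These sites held 8.87% of the proteasome reads and 3.47% of the E2 reads without Ube2l3, beside 11.8% over all nuclear genes. Per group the share of proteasome reads was 7.59% ± 5.16 in KO and 12.2% ± 6.55 in WT (SD, n = 2), and the groups overlapped. At the other end of the gene, the last 10% of the gene length held 48 of the 83 exonic sites (57.8%), beside 43.5% over all nuclear genes. This was 13 of 30 (43.3%) in the proteasome genes and 35 of 53 (66.04%) in the E2 genes. Reads far from a gene start mark the 5′ end of an RNA or of a fragment, and the counts do not tell these apart.

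The start regions of 6 genes with a site at the annotated start are shown as RefSeq promoter windows on GRCm38.p6, which matched 45 of the 56 genes. The site covered the start base itself in all of the 6 but Psmd2, where it began 3 bases after it. Each run starts 250 bases before the annotated start, is written 5′ to 3′ on the strand of the gene, and has in capitals the bases covered by the start site of that gene.
Psmc2: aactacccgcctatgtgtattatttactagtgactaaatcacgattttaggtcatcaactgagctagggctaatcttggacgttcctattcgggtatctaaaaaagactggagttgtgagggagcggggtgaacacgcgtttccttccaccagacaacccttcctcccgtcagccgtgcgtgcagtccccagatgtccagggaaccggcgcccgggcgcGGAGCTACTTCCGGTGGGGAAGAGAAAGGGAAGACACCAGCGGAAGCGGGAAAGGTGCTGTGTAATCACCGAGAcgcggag
Psmc6: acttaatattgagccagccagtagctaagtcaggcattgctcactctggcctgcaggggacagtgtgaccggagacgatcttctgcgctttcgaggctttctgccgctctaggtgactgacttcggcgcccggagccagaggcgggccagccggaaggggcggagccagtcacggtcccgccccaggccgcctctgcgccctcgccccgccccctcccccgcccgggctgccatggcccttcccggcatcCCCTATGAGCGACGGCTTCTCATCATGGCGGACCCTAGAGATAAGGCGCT
Psmd2: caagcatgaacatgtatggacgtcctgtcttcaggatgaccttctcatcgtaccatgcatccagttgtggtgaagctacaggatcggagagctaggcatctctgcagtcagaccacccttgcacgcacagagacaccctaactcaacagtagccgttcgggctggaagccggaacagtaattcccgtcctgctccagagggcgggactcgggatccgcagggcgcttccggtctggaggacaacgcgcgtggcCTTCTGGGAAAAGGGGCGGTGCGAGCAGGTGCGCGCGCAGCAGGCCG
Psmd12: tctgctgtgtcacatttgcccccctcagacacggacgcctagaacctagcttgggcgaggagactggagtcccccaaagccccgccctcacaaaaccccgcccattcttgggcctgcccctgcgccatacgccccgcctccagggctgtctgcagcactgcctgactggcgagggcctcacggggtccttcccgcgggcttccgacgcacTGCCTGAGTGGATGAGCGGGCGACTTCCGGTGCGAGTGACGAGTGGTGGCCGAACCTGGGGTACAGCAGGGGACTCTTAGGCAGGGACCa
Ube2q1: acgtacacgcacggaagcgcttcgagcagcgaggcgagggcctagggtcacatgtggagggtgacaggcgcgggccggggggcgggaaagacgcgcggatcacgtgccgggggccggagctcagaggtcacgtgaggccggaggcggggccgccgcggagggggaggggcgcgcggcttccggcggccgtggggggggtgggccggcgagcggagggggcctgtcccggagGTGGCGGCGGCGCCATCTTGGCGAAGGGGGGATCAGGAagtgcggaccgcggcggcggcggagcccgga
Ube2v1: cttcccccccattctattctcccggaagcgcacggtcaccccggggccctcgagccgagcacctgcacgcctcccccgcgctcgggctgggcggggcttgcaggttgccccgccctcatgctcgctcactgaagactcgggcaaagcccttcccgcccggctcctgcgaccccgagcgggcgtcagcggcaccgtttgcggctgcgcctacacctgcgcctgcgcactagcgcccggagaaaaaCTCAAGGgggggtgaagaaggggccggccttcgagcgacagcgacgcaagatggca

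The window of Psmc2 lies at chr5:21786497-21786796 on the plus strand. Its site peaked 1 base before the annotated start and held 80.7% of the reads of the gene, with 11 and 74 reads in KO and 28 and 50 in WT. Psmc6, another base ATPase, at chr14:45329574-45329873 on the plus strand, had its only site 1 base after the annotated start, with 7 and 4 reads in KO and 0 and 10 in WT. Psmd2, a scaffold subunit of the base, at chr16:20651402-20651701 on the plus strand, had 16 and 13 reads in KO and 3 and 9 in WT at a site 16 bases after the start. In none of the 3 did KO and WT separate by more than their libraries did.

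The site of Psmd12, in the window chr11:107479278-107479577 on the plus strand, had the most reads of any site at a proteasome gene start. It peaked 27 bases before the annotated start and had 35 and 86 reads in KO and 50 and 145 in WT (log2 fold change -1.28, SE 0.84, adjusted p = 0.787), 90.03% of the reads of the gene. The site at the start of Psmb1, for which no window is shown, had 46 and 29 reads in KO and 1 and 49 in WT. Ube2q1, at chr3:89773359-89773658 on the plus strand, had all of its reads at the start, 10 and 7 in KO and 9 and 8 in WT. Ube2v1, at chr2:167631956-167632255 on the minus strand, had 5 and 1 reads in KO and 0 and 8 in WT at a site of 7 bases over the start. No site at the start of any of the 13 genes was called.

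In the 58 windows of the 45 genes, 4 short motifs were searched on both strands as exact letters. The GC box GGGCGG was in 40 windows (69.0%), beside 35.7% of the 32841 windows of all genes, and in 14 of the 25 proteasome windows and 26 of the 33 E2 windows. The core of the antioxidant response element, TGACNNNGC, which is bound by the factors NFE2L1 and NFE2L2, was in 8 windows (13.8%), beside 12.4%, and these included the windows of Psmc6, Psmd12 and Ube2v1 above, each on the other strand. The CCAAT box was in 14 windows (24.1%), beside 37.4%, with 10 of the 25 proteasome windows (40.0%) and 4 of the 33 E2 windows (12.1%), and TATAAA was in 4 (6.90%), beside 13.6%. Motifs of different names may overlap, and a match describes the letters only.

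The other genes of the pathway were counted from lists. The 16 receptors, regulators and other factors of the proteasome in the table had 6 log2 fold changes above 0 and 10 below. Of these genes 13 were tested and 2 were called lower in KO by DESeq2, none by edgeR. Over all genes tested by DESeq2, 0.96% were called lower. Vcp and AI314180 were higher in KO and not called (log2 fold change 2.84 and 1.63, DESeq2 adjusted p = 0.188 and 0.237). Ddi2, a protease that activates NFE2L1, had 145 and 40 reads in KO and 260 and 190 in WT (log2 fold change -2.28, SE 0.58, adjusted p = 0.00886). Both KO libraries lay below both WT libraries, but the call was lost without KO replicate 2 (adjusted p = 0.44) or WT replicate 1 (adjusted p = 0.312), and without intronic and antisense sites the log2 fold change was 0.64 (adjusted p = 0.998). Usp14, a deubiquitinase that binds the proteasome, had 131 and 94 reads in KO and 527 and 84 in WT (log2 fold change -2.38, SE 0.70, adjusted p = 0.038). This rested on WT replicate 1, without which the log2 fold change was -0.37 (adjusted p = 0.981), and the call was also lost without KO replicate 1 or KO replicate 2 (adjusted p = 0.999 and 0.397).

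NFE2L1, the factor that raises proteasome gene transcription when proteasome activity falls, is encoded by Nfe2l1, which had 242 and 348 reads in KO and 192 and 264 in WT (log2 fold change -0.41, SE 0.51, adjusted p = 0.947). The 33 E3 ligase genes in the table had 13 log2 fold changes above 0 and 20 below. Of these genes 26 were tested and none was called by edgeR. By DESeq2 1 was called lower, beside 0.96% of all genes tested. This was Trim63, which encodes the muscle E3 ligase MuRF1 and had 48 and 44 reads in KO and 72 and 136 in WT. Its log2 fold change was -2.00 (SE 0.62, adjusted p = 0.062), both KO libraries lay below both WT libraries, and the call was lost when any 1 library was left out (adjusted p = 0.169 to 0.85) and without independent filtering (adjusted p = 0.122). Fbxo32, the other muscle E3 gene known from wasting, encodes atrogin-1 and had 125 and 229 reads in KO and 96 and 121 in WT (log2 fold change -0.05, SE 0.60, adjusted p = 0.992). Among the E1 enzyme genes 3 of 6 were tested, and among the genes of ubiquitin and its relatives 3 of 5, with none called by either tool. The log2 fold change was above 0 in 5 E1 genes and below in 1. For ubiquitin and its relatives it was above 0 in 2 and below in 3.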

How the data were processed

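WTSS-seq libraries of 2 KO and 2 WT mice were compared. Per the labels the build was GRCm38.p5, and the authors deposited raw read counts per clustered start site and library, with a Cuffcompare class code for each site. Mapping and clustering were described for the 3′ end libraries and not separately for the 5′ ends. Reads were amplified by PCR without stated molecular identifiers, so intervals and floors (3 counts) cover counting error only. Groups came from the labels, every count column was used, and a line of column totals was left out.

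Sites, and counts summed per gene symbol, were tested over the whole table by DESeq2's Wald test (1.42.0, in R 4.3.3; median-of-ratios size factors, independent filtering, Benjamini-Hochberg adjusted p under 0.1). The study's methods name DESeq2 and this threshold for 3′ end sites and give no further settings. Independent filtering kept mean normalized counts above 8.76 (sites) and 16.5 (genes). As an alternative, edgeR 4.0.16 was run with its quasi-likelihood test (TMM, filterByExpr), and diffSpliceDGE with the Simes method tested use of sites. Genes without an adjusted p were below a filter. Fold changes are log2 of KO over WT with 95% normal intervals. The fits were also run on simulated data, where changes were placed only in well-read sites and genes at a fixed spread. This did not cover genes with few reads, and its outcome is not given here. Positions came from RefSeq on GRCm38.p6, which has the same primary assembly, and no genome sequence was used beyond the RefSeq promoter windows.

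Genes were named if called by either tool, among the 2 most read of their role, among the 5 smallest p in each direction, or among the 5 with most sites, each with its most read site. Other genes named with values (Psmc6, Psmd2, Ube2q1, Ube2d2a, Ube2n, Ube2l6 and those of the lists) were chosen after their values were seen. The genes and lists were chosen with earlier results of these data known. The p-values measure the spread between single mice.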

Additional observations from a re-analysis of the deposited data

How the results depend on the processing

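Of the 2 sites called higher in KO, 1 was called with edgeR, without independent filtering, with library-total size factors, with the replicate number as a block and at an adjusted p under 0.05, and 0 with edgeR and the block, an alternative chosen after seeing the data. Leaving out 1 library gave 0 to 2 sites and 0 to 1 genes, where 1 gene was called. Of the 2 genes with changed use of sites, 0 were called on primary chromosomes only and 0 with the block, and 0 to 1 when 1 library was left out. Taking library sizes over all sites, also chosen after seeing the data, gave 2. The causes were not tested, beyond the fewer samples of the fits that left one out. It was not established whether replicate numbers paired the libraries. The correlation between same-numbered deviations was 0.0729 over 9857 sites, and this value alone cannot decide it. No site or gene was called lower under any alternative. The median log2 fold change of the E2 genes ran from 0.013 to 0.23 and that of the proteasome genes from -0.27 to 0.17 when 1 library was left out. Ube2d1 had log2 fold changes of 3.001 to 5.77 over 12 alternatives and lost its call in 1. Of 309 values of the 27 named genes under alternatives, 280 kept their sign. The share of reads at gene starts was 1.98% with a window of 50 bases and 2.06% with 250, against 2.02%. Of the pathway genes that edgeR did not call, Ddi2 and Trim63 were called with edgeR and the block (adjusted p = 0.0321 and 0.0967), while DESeq2 with the block lost Trim63 and Usp14 (adjusted p = 0.155 and 0.206). Depth limited the tests, as 31 of 56 genes had under 100 reads in all and 33 received an adjusted p.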
